A study of Mus musculus with 6 samples.

Results

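The 9 genes described here encode transcription factors and a cofactor of the microglial and blood cell lineages: Tal1, Lyl1, Lmo2, Runx1, Spi1, Irf8, Sall1, Mef2a and Mef2c. They are 9 of the 24411 genes in the count tables. Of these, 8 were taken for their known roles, and Lyl1 was added because of its low count with LPS in these same libraries. Its values in that comparison are therefore given as a description, with no test. RNA-seq libraries were made from primary microglia, the brain's resident macrophages, of 3-day-old ICR mice. Brains of 12 mice were pooled, mixed glia grew for 2 weeks, and microglia were shaken off and replated; more than 92% of cells carried CD11b by flow cytometry, per the labels. A group of 3 libraries came from cells given lipopolysaccharide (LPS, a bacterial surface molecule detected by Toll-like receptor 4) at 10 ng/ml together with FTY720 (fingolimod, a drug that resembles sphingosine) at 1 µM for 4 h. The other group of 3 libraries came from cells given FTY720 at 1 µM alone for 4 h. Both groups thus carried FTY720, and libraries of cells without FTY720 were not analysed here. The labels do not say that the replicates came from separate animal pools or cultures, so p-values measure the spread between these RNA samples, which may be technical.

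PU.1, the product of Spi1, is the ETS-family factor on which macrophages and microglia depend, and it binds DNA alone or with IRF8 at composite sites. RUNX1 is a Runt-domain factor needed for blood stem cells to form and is also made by microglial precursors. TAL1 and LYL1 are closely related basic helix-loop-helix proteins that bind E-boxes with E proteins, and LMO2 bridges them to LDB1 and GATA factors. SALL1 is a zinc finger repressor that marks microglia among macrophages, and MEF2A and MEF2C are MADS-box factors whose motif is common in microglial enhancers.

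RefSeq promoter sequences on GRCm38.p6, each running from 250 bases before to 50 bases after an annotated start, were found for 7 of the 9 genes (all but Spi1 and Lmo2), with 14 starts in all. Those of 4 genes are printed, because they belong to the gene with the lowest fold change, its closest relative, the gene that rose, and a gene with MEF2 and PU.1 motif matches. Capitals mark matches on either strand to motifs chosen after the sequences had been seen: GAGGAA for PU.1, CAGNTG for the E-box, AGATAA for GATA factors, TGTGGT for RUNX factors, and AAATAG as the right-hand part of the MEF2 consensus. The Lyl1 window spans chr8:84701207-84701506 on the plus strand, the first Tal1 window chr4:115056176-115056475 on the plus strand, the first Runx1 window chr16:92826025-92826324 on the minus strand, and the Mef2a window chr7:67372809-67373108 on the minus strand.
Lyl1: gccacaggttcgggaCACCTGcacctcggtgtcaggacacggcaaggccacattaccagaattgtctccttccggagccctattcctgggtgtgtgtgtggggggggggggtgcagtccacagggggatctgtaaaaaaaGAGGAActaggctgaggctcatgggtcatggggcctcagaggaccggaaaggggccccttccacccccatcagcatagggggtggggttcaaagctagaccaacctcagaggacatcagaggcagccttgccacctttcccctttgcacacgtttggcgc
Tal1: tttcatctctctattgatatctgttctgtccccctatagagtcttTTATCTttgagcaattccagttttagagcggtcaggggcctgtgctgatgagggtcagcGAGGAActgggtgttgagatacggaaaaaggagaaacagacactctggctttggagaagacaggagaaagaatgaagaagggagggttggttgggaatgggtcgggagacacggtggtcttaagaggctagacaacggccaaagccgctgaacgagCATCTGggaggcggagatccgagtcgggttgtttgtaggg
Runx1: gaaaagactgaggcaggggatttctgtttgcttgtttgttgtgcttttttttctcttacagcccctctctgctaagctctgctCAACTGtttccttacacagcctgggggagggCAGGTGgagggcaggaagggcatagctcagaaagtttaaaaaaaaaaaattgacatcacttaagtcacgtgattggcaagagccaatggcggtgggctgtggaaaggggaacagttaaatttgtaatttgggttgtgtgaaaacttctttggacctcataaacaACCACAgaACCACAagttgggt
Mef2a: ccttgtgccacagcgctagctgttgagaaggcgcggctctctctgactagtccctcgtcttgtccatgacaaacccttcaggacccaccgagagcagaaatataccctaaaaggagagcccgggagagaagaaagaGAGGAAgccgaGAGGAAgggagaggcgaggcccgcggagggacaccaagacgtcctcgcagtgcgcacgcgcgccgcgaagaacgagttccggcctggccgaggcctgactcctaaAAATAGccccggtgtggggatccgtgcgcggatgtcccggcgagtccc
The Lyl1 window holds a PU.1 match whose leftmost base lies at -110 from the start, counted with the start as 1, and an E-box at -235. The Tal1 window holds a GATA match at -205, a PU.1 match at -146 and an E-box at 11. The Runx1 window holds E-boxes at -167 and -136 and RUNX matches at 29 and 37, and the Mef2a window holds PU.1 matches at -114 and -103 and a MEF2 match at 3. No printed matches overlap. Among 32851 RefSeq promoters of the same length, 28.3% hold the PU.1 letters, 51.4% the E-box, 11.2% the GATA, 16.8% the RUNX and 12.1% the MEF2 letters. A longer MEF2 form and composite ETS-IRF and NF-kappaB motifs were also searched, and are not given here; the short MEF2 form was taken in place of the longer one after its matches had been seen. These matches describe letters only.

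Gene reads numbered 2431775 to 2800738 in FTY720 plus LPS libraries and 2729532 to 3454647 in FTY720 libraries (exact two-sided permutation p = 0.2, 0.8 adjusted over 4 library measures; 0.1 is the smallest p that 3 against 3 allow). Reads of the ribosomal RNA-like rows Rn45s, Lars2 and Mir6236 took 38.2% to 44.9% of gene reads with LPS and 28.8% to 59.0% without. FTY720 replicate 3 stood apart from its group, with the lowest share of these rows. Reads on the opposite strand of the 9 genes numbered 26 with LPS and 28 without, 1.16% and 0.804% of their reads. A count of 3 reads, the limit that a count of 0 allows, are worth 1.13 to 1.51 CPM (sense reads scaled to the size of each library) with LPS and 0.711 to 1.01 CPM without, for counting error only. The microglial marker Itgam, which encodes CD11b, had 1285 reads with LPS and 1066 without. Other markers of brain microglia were near 0 in FTY720 plus LPS and in FTY720 libraries: Siglech had 1 and 0 reads, Gpr34 3 and 6, and Tmem119 11 and 8. Of 11 tested microglial markers, 10 were higher with LPS and 0 lower (median log2 fold change 0.83), but this count dropped to 2 under scaling by total size, and to 5 (with 1 lower) after the trend on expression was taken out. Of border macrophage markers 3 of 3 tested were higher (0 with total library size alone), and of astrocyte markers 2 of 5 were higher and 1 lower. The neuron markers had 3 of 3 tested genes lower, the oligodendrocyte lineage 5 of 6, and fibroblasts and mural cells 0 of 4 in either direction. Over all tested genes, 23.3% were higher with LPS and 22.7% lower. The part of these cells in the results was not tested.

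Of the 8 genes taken for their roles, 7 had enough reads to test: 1 rose with LPS (Runx1), 4 fell (Tal1, Lmo2, Mef2a and Spi1) and 2 did not pass the test (Irf8 and Mef2c). Over all 10124 genes tested, 46.0% passed, 23.3% higher and 22.7% lower. These shares are also the background for the count of every gene list below. Because the 8 genes were chosen with earlier results of these data known, nothing is read from their count beyond that background. Their median log2 fold change was -0.39, against -0.04 over all tested genes. The CPM of the groups did not overlap for 5 of the 7, against 54.0% of all tested genes. Sall1 had too few reads to test, and Lyl1 and Tal1 passed the read filter through their FTY720 libraries alone. In whole cultures, fewer cells of a type and less RNA per cell cannot be told apart.

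**Figure D1:**
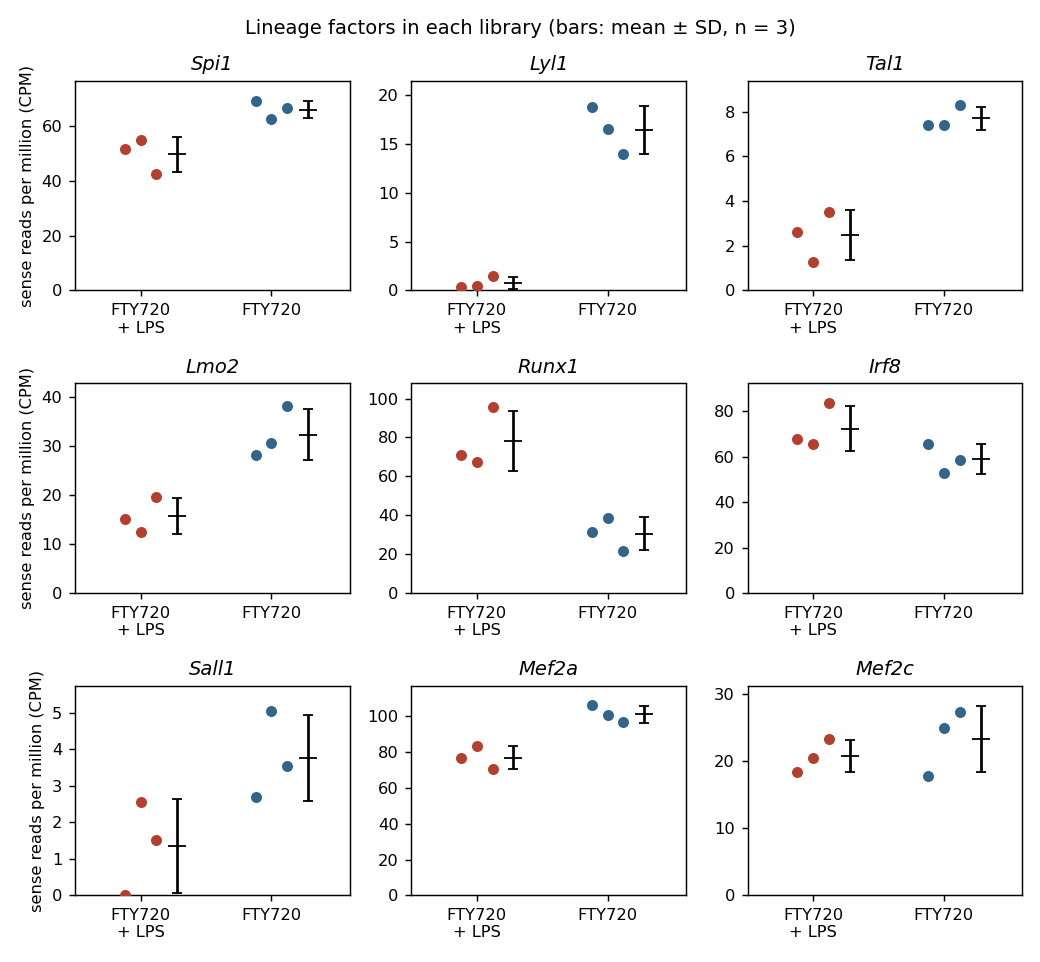
Library-scaled sense reads (CPM) of each of the 9 genes, 1 point per library, with FTY720 + LPS left of FTY720; bars give the mean and SD of 3 libraries. Lyl1 lies below 2 CPM in every library with LPS, Runx1 is higher with LPS, and Irf8 and Mef2c overlap.

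Lyl1, a blood and endothelial helix-loop-helix factor, was nearly absent with LPS. It had 0.375, 0.426 and 1.51 CPM (1, 1 and 3 reads) in the FTY720 plus LPS libraries, against 18.8, 16.5 and 14.0 CPM (56, 49 and 59 reads) in the FTY720 libraries. Every library with LPS held at most 3 reads, while no library without LPS held fewer than 49. The mean was 0.771 ± 0.642 CPM with LPS and 16.4 ± 2.42 CPM without (SD, n = 3 each), a log2 fold change of -4.43 ± 0.42 (SE) or 21.5-fold lower. The summed reads were 5 with LPS and 164 without. No tested gene had a lower fold change, 1 other gene lay below -4, and 17 of 10124, Lyl1 included, lay below -3. The gene spans 3259 bases on chromosome 8, from 84701457 to 84704715 on the plus strand of GRCm38 (the assembly also called mm10). Of the genes beside it, 2 had values in the test, and neither passed. Trmt1, a tRNA methyltransferase gene 1648 bases away on the same strand, stood at -0.14 ± 0.18 (adjusted p = 0.548). Nfix, which overlaps Lyl1 by 4 exon bases on the opposite strand, stood at -0.18 ± 0.30 (adjusted p = 0.649).

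Tal1, the close relative of Lyl1, fell with LPS. It had 2.63, 1.28 and 3.53 CPM (7, 3 and 7 reads) with LPS, against 7.39, 7.39 and 8.29 CPM (22, 22 and 35 reads) without. The groups did not overlap, and the log2 fold change was -1.65 ± 0.37, 3.14-fold lower (edgeR adjusted p = 0.000888). Each FTY720 plus LPS library rests on at most 7 Tal1 reads, so its level there is coarse. Tal1 passed the read filter through its FTY720 libraries alone, the group where it is high, so its p-value is not free of that selection. Per kilobase of exon, Lyl1 stood at 0.734 ± 0.354 times the level of Tal1 with LPS and at 5.24 ± 1.06 times without (SD, n = 3 each), so that the order of the pair turned round in the means. This ratio is a description, since Lyl1 was chosen by its change.

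Lmo2, the LIM-only bridge protein of the complex, fell as well. It had 15.0, 12.3 and 19.7 CPM with LPS, against 28.2, 30.6 and 38.1 CPM without. All 3 libraries with LPS lay below all 3 without, and the log2 fold change was -1.07 ± 0.20, 2.10-fold lower (adjusted p = 0.000158). The downstream neighbour Fbxo3, an F-box gene 45842 bases away, stood at -0.67 ± 0.19 (adjusted p = 0.00569), and Caprin1, 160336 bases away on its other side, stood at 0.14 ± 0.10 and did not pass (adjusted p = 0.272).

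The list around the TAL1, LYL1 and LMO2 complex holds its partners and relatives and also the Id genes, which inhibit E proteins. Of 12 tested among 21 listed, 1 rose and 7 fell, Id1 and Id2 among them, beside 22.7% lower over all tested genes, and the median log2 fold change was -0.61, beside -0.04. Ssbp2, which protects LDB1 from degradation, fell by 1.22 ± 0.35 on the log2 scale, a call lost with DESeq2, with the expression trend removed and without FTY720 plus LPS replicate 2 (adjusted p up to 0.0791). Id2 fell by 1.13 ± 0.12 and Id1 by 0.73 ± 0.18. The adaptor Ldb1 stood at -0.65 ± 0.19, and the E protein genes Tcf4, Tcf3 and Tcf12 at -0.75 ± 0.12, -0.64 ± 0.21 and -0.58 ± 0.14; each passed the test. Lmo4, a LIM-only relative of Lmo2, rose by 1.44 ± 0.14. Over the 15 alternatives 1 to 2 rose and 5 to 8 fell. Gata1 and Gata3, GATA partners in blood cells, had 0 reads in every library, and Gata2 had 13 reads with LPS and 1 without. Among blood progenitor factors, 6 of 12 were tested and 1, the receptor gene Kit, fell (-1.66 ± 0.31), while 5 did not pass.

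Runx1 was the gene that rose. It had 71.0, 67.3 and 95.7 CPM (189, 158 and 190 reads) with LPS, against 31.2, 38.6 and 21.8 CPM (93, 115 and 92 reads) without. The groups lay well apart, with the lowest LPS library above the highest FTY720 library. The mean was 78.0 ± 15.5 CPM with LPS and 30.6 ± 8.44 CPM without (SD, n = 3 each), and the log2 fold change was 1.36 ± 0.18, 2.58-fold higher (adjusted p = 1.82e-06). Runx1 runs over 224684 bases of chromosome 16, from 92601466 to 92826149 on the minus strand, with starts far apart, and the counts do not separate transcripts from them. Of its family and cofactors, 5 of 7 were tested, and 2 rose and 0 fell. These were the Groucho-type corepressors Tle4 (1.68 ± 0.14) and Tle3 (0.65 ± 0.21). The Tle3 call was lost with DESeq2, with total library size alone, and without FTY720 replicate 1 or FTY720 plus LPS replicate 1 (adjusted p up to 0.432). Cbfb, the partner that stabilises Runt factors on DNA, stood at 0.19 ± 0.16 and did not pass (adjusted p = 0.351).

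Spi1 had the highest level of the 9 genes per kilobase of exon, and fell slightly. It had 51.4, 54.9 and 42.3 CPM with LPS, against 68.9, 62.5 and 66.3 CPM without. The groups did not overlap, and the log2 fold change was -0.41 ± 0.14, 1.32-fold lower (adjusted p = 0.0207). The call is lost with DESeq2 (adjusted p = 0.0998), with a correction for length and GC content (0.0778), and without FTY720 replicate 1 (0.0752), FTY720 plus LPS replicate 1 (0.0664) or FTY720 plus LPS replicate 3 (0.133). Other ETS-family genes moved in both directions, with 5 of 14 tested higher and 2 lower (3 and 2 with total library size alone, 4 and 4 without FTY720 replicate 3). Etv5 rose by 3.08 ± 0.18 and Ets1 by 2.35 ± 0.24 on the log2 scale. Fli1, an ETS factor of blood and endothelium, fell by 1.84 ± 0.19. Other macrophage and microglia lineage factors, a list of 22, had 20 tested, 7 higher and 6 lower (4 and 7 with total library size alone): Bhlhe41 fell by 3.09 ± 0.17, and Irf1 and Klf2 rose by 2.92 ± 0.12 and 2.83 ± 0.30. Genes known as PU.1 targets also moved both ways: of 21 tested, 10 rose and 7 fell, with a median of 0.21. Scaling by total library size alone gave 2 higher and 8 lower, and taking out the trend of fold change on expression gave 5 and 10. Cd14, the LPS co-receptor, rose by 2.12 ± 0.11, whereas Tlr4, the LPS receptor, fell by 2.20 ± 0.19 and the kinase gene Fes by 1.52 ± 0.26. Csf1r, the receptor that microglia need for survival, stood at -0.18 ± 0.16 and did not pass (adjusted p = 0.383).

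Irf8, the interferon regulatory factor that pairs with PU.1, did not pass the test. It had 67.9, 65.6 and 83.6 CPM with LPS, against 65.9, 52.7 and 58.5 CPM without. The groups overlapped, the log2 fold change was 0.29 ± 0.14 (adjusted p = 0.0957), and its 95% interval ran from -0.00042 to 0.58. With total library size alone the value turned to -0.05 (adjusted p = 0.915), and with length and GC content corrected it passed at 0.38 (adjusted p = 0.0154). Of its known targets, 9 of 11 were tested, of which 7 rose and 1 fell, beside 23.3% higher and 22.7% lower over all tested genes. Over the 15 alternatives 5 to 8 rose, with 5 under total library size alone. Without FTY720 plus LPS replicate 1, 7 rose and 0 fell. Il12b, the interleukin-12 p40 gene, had 764 reads with LPS and 1 without. Nos2, the inducible nitric oxide synthase gene, had 88 reads with LPS and 5 without (4.55 ± 0.49), and Nlrc5, a regulator of MHC class I genes, rose by 1.59 ± 0.16.

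Sall1, the microglial repressor, was scarce in all 6 libraries. It had 0, 2.55 and 1.51 CPM (0, 6 and 3 reads) with LPS, against 2.69, 5.04 and 3.55 CPM (8, 15 and 15 reads) without. The groups did not overlap, by the small gap between the highest LPS library and the lowest FTY720 library, and Sall1 failed the read filter. From summed reads, 9 against 38, it was 2.90-fold lower with LPS, with a counting interval of 1.38 to 6.83 that leaves out the spread between libraries. Where the filter was dropped, edgeR gave a log2 fold change of -1.52 (adjusted p = 0.0206) and DESeq2 -1.48 (adjusted p = 0.187). Without FTY720 plus LPS replicate 1, the library at 0, the value was -0.81 (adjusted p = 0.251), and over the 6 settings that tested Sall1 it lay between -2.43 and -0.81. Of 13 tested genes of the SALL family and the NuRD complex, the corepressor that SALL1 recruits, 5 rose and 2 fell. Fewer rose in 13 of 15 alternatives, down to 2 with total library size alone and 3 with upper-quartile factors or without FTY720 plus LPS replicate 1. The remodeller Chd4 rose by 1.38 ± 0.12, and Sall2 fell by 1.76 ± 0.37. Of 8 genes that depend on SALL1 in microglia, 3 were tested. Cx3cr1, the fractalkine receptor gene, rose by 1.10 ± 0.18, and P2ry12, a purinergic receptor gene, by 0.74 ± 0.29 (adjusted p = 0.0412). The P2ry12 call was lost in 9 of 15 alternatives (adjusted p up to 0.412), namely DESeq2, length and GC correction, upper-quartile factors, no read filter, total library size alone, the replicate block, and without FTY720 replicate 1, FTY720 replicate 2 or FTY720 plus LPS replicate 2. Cx3cr1 kept its call in all 15.

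Mef2a fell slightly and Mef2c did not pass the test. Mef2a had 77.0, 83.5 and 70.5 CPM with LPS, against 106, 101 and 96.7 CPM without. Its groups did not overlap, and the log2 fold change was -0.39 ± 0.12, 1.31-fold lower (adjusted p = 0.0126). The call is lost with DESeq2 (adjusted p = 0.0541) and without FTY720 replicate 1 (0.0603), FTY720 plus LPS replicate 1 (0.0639) or FTY720 plus LPS replicate 3 (0.0779). Mef2a shares 302 exon bases with Lysmd4 on the opposite strand, and that gene stood at 0.52 ± 0.27 (adjusted p = 0.126). Mef2c had 18.4, 20.4 and 23.2 CPM with LPS, against 17.8, 24.9 and 27.2 CPM without. These overlapped, with a log2 fold change of -0.20 ± 0.20 (adjusted p = 0.439) and a 95% interval of -0.61 to 0.22. Per kilobase of exon, Mef2c stood at 0.253 ± 0.047 times Mef2a with LPS and at 0.217 ± 0.055 times without. A list of their relatives, the class IIa deacetylases that bind and repress MEF2 proteins, and the kinases Mapk7 and Map2k5 had 6 tested genes, of which 4 fell and 0 rose, beside 22.7% lower over all tested genes (median -0.88, beside -0.04). The fallen genes were Mapk7 (-1.33 ± 0.23), a kinase that activates MEF2 factors, Hdac5 (-1.01 ± 0.15), Mef2d (-0.88 ± 0.17) and Hdac9 (-0.87 ± 0.20). All 5 listed MEF2 targets were tested; Klf2 (2.83 ± 0.30) and Klf4 (1.54 ± 0.21) rose and Nr4a1 (-0.94 ± 0.22), Hdac9 and Jun (-0.62 ± 0.13) fell.

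**Figure D2:**
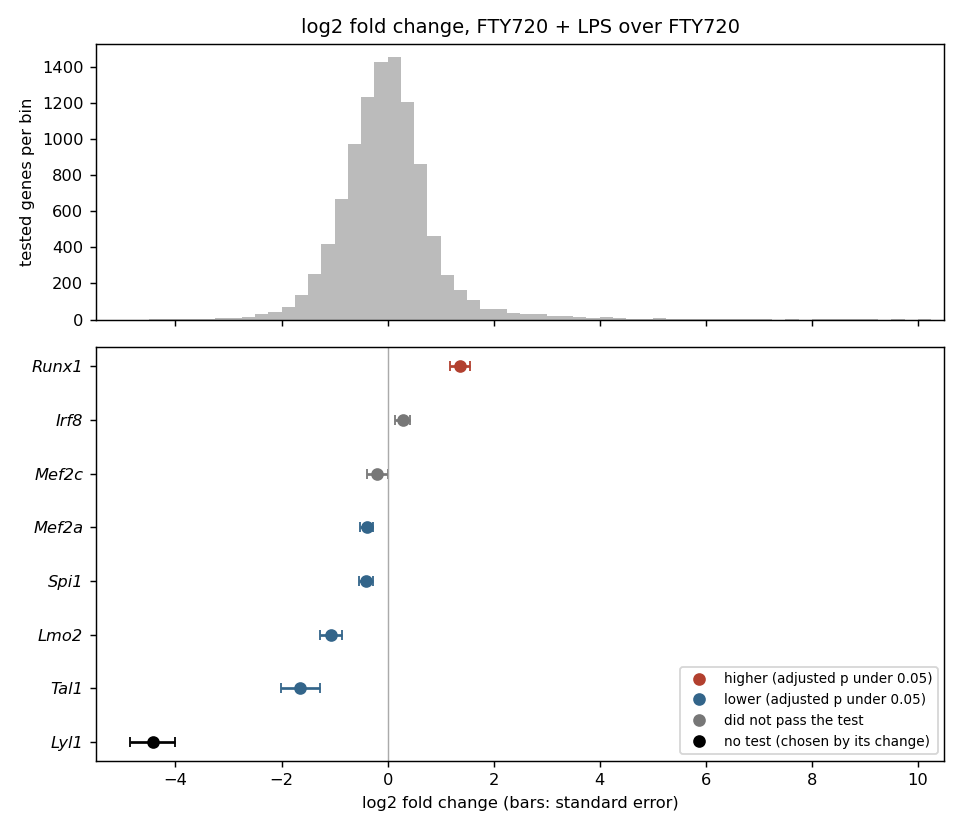
Above, log2 fold changes of FTY720 + LPS over FTY720 for 10124 tested genes, as a histogram; below, the 8 tested genes of interest with standard errors as bars. Lyl1, at -4.43, lies at the lower edge of the histogram, and Runx1 is alone among the 8 in being called higher.

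**Figure D3:**
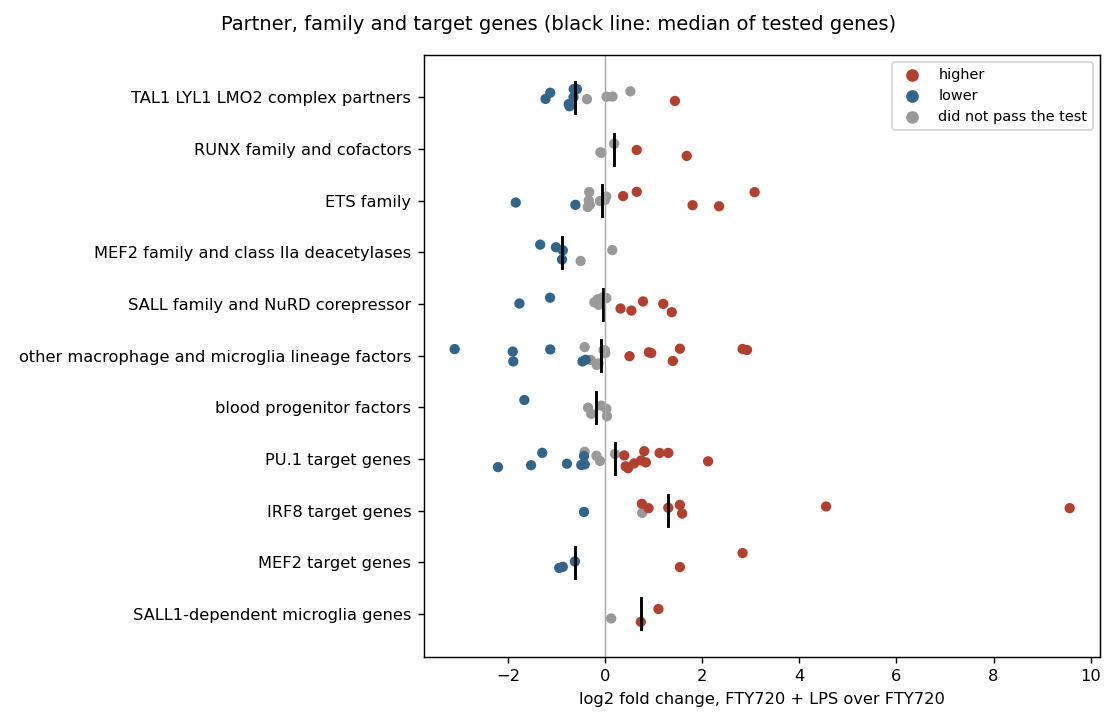
Log2 fold changes of FTY720 + LPS over FTY720 for the tested genes of each related list, 1 point per gene, with the list's median as a black line. The partner list has its median at -0.61, and the far right point is Il12b, with 1 read in the FTY720 libraries.

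Levels per kilobase of exon order the genes differently from fold changes. With LPS, the mean CPM per kilobase was 18.4 ± 2.41 for Spi1, 10.3 ± 1.39 for Irf8, 7.24 ± 1.71 for Lmo2 and 6.49 ± 1.29 for Runx1. Without LPS, the highest were Spi1 at 24.5 ± 1.19, Lmo2 at 14.9 ± 2.39, Lyl1 at 9.12 ± 1.34 and Irf8 at 8.37 ± 0.931 CPM per kilobase (SD, n = 3 each). Lyl1 and Irf8 without LPS, and Lmo2 and Runx1 with LPS, lay within their SDs of each other, while Spi1 lay above the next gene by more than the SDs in both groups. Lyl1 stood at 0.428 ± 0.357 CPM per kilobase with LPS, percentile 3.22 of the tested genes, against percentile 73.8 without LPS. Runx1 stood at percentile 62.7 with LPS and at percentile 31.6 without. Using the longest transcript as the length moves Mef2a (18.3 CPM per kilobase without LPS) and Irf8 (17.0) above Lyl1. With LPS it moves Mef2a (13.9) and Runx1 (13.3) above Lmo2 (9.19). Spi1 stays highest in the means, but with LPS its range of SD (24.4 ± 3.20) then overlaps that of Irf8 (20.9 ± 2.83). The order below Spi1, and how far Spi1 leads, thus depend on the length used.

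**Figure D4:**
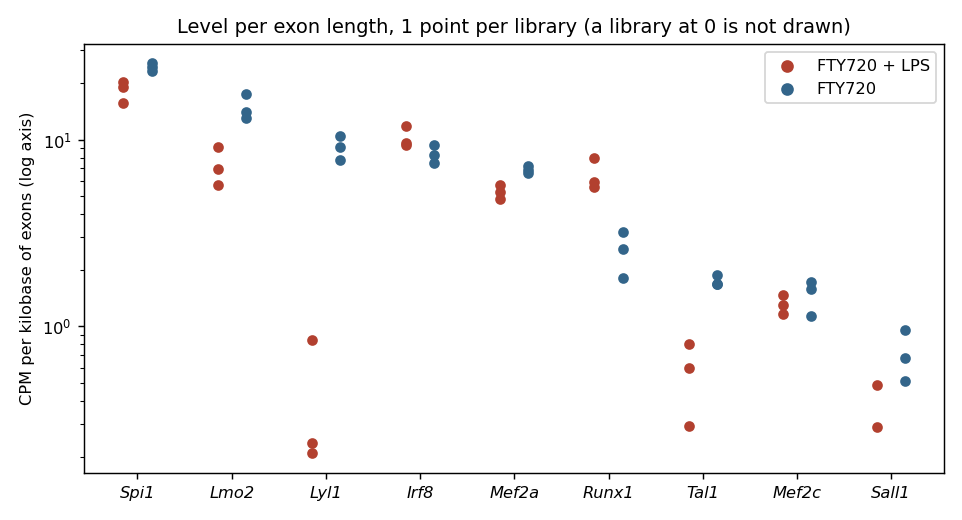
CPM per kilobase of exon on a log axis, 1 point per library, with FTY720 + LPS left of FTY720; a library at 0 is not drawn. Spi1 is highest in both groups, and Lyl1 shows the widest gap between groups.

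Genes with the profile most like each extreme were named by the Euclidean distance between log2 CPM values centred on the mean of 6 libraries. Nearest to Runx1 lay March5, a mitochondrial ubiquitin ligase gene (distance 0.282), Ulk1, an autophagy kinase gene (0.306), and the chaperone gene Hspa2 (0.316). Nearest to Lyl1 lay Cxcr4, a chemokine receptor gene (0.981), Cd300lb, a myeloid receptor gene (1.04), and Zfp36l2, an RNA-binding protein gene (1.18). Their log2 fold changes were -4.02, -3.38 and -3.18. These neighbours of Lyl1 are a description, since Lyl1 was chosen by its fall. Its profile with LPS rests on 1, 1 and 3 reads.

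Blood and endothelial cells also express several of these factors, and their markers were counted in the same libraries. The erythroid and megakaryocyte list summed to 15.8 to 21.7 CPM with LPS and 5.21 to 6.38 CPM without; of its 10 genes, 2 were tested and 2 rose, Itga2b and Pf4 (1 with DESeq2 or total library size alone), while Hba-a1, Hbb-bs, Gata1 and Gp9 were at 0 in every library. The endothelial list summed to 14.1 to 18.1 CPM with LPS and 7.06 to 10.4 CPM without, and its 1 tested gene, Cdh5, rose. The granulocyte and monocyte list had 1 tested gene, S100a8, which was higher, a call lost in 9 of 15 alternatives, and S100a9, Ngp and Ly6c2 were at 0. None of 9 B and T lymphocyte genes had enough reads to test, with 4.50 to 5.54 CPM in all with LPS and 1.66 to 2.35 CPM without. The erythroid, endothelial, lymphocyte, and granulocyte and monocyte sums were higher in every library with LPS than in any without. The same held for the microglia sum (4230 to 4887 CPM against 2611 to 2828) and the border macrophage sum (315 to 347 against 168 to 183). The neuron and oligodendrocyte lineage sums were lower in every library with LPS. Of all single genes tested, 54.0% had groups that did not overlap. Most of the erythroid sum came from Itga2b (mean 9.77 CPM with LPS, 1.83 without) and Pf4 (8.17 and 3.71). Pf4 is also on the border macrophage list. The lymphocyte list held 11 to 12 reads per library with LPS and 5 to 7 without. The part of these cells in the results was not tested.

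**Figure D5:**
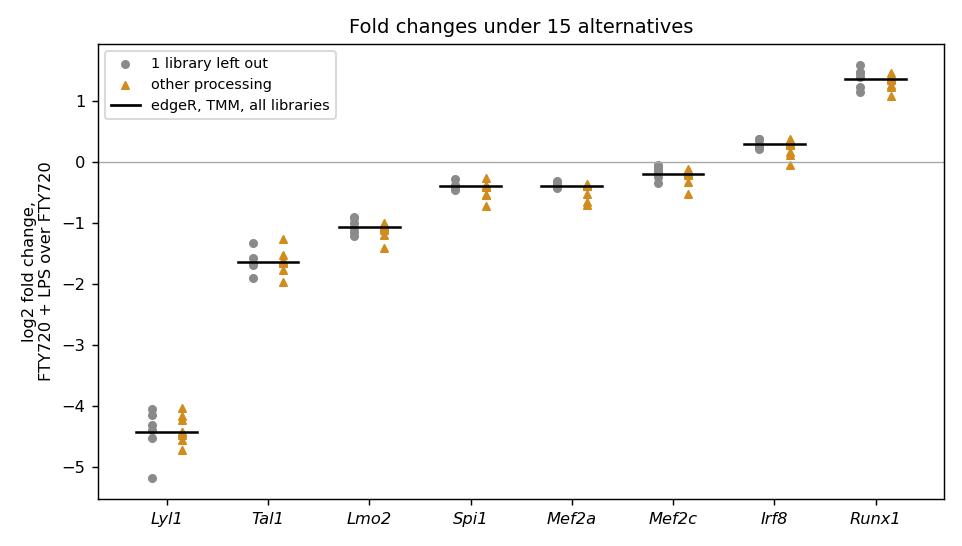
Log2 fold changes of the 8 tested genes (FTY720 + LPS over FTY720) under 15 alternatives, with 1 library left out (circles) or other processing (triangles), and the reported value as a line. Runx1 lies between 1.08 and 1.59, Irf8 crosses 0, and Lyl1, whose direction was fixed by how it was chosen, lies between -5.19 and -4.03.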

How the data were processed

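The 6 libraries are strand-specific and ribosomal RNA-depleted, per the labels' protocols. The authors deposited raw read counts per gene, with columns laid out as STAR writes them. Per the submitters' processing notes, the tools were Trimmomatic 0.33, STAR 2.5.1, CASAVA 1.8.2 and DESeq2, with build mm10; their annotation is unknown here. The layout counts uniquely mapped reads. Sense-strand counts were used, without the summary rows for unassigned reads. The test was edgeR's quasi-likelihood test (edgeR 4.0.16, R 4.3.3) with TMM factors, filterByExpr at minimum count 10 and group as the only term; p-values were adjusted by Benjamini-Hochberg over 10124 genes, threshold 0.05. CPM values use TMM-scaled library sizes. Standard errors are |log2 fold change| over the root of F. In all, 15 alternatives were tried, DESeq2 1.42.0 among them. The fit was also run on simulated data in which few genes changed and all genes shared the same spread between libraries. That setting differs from these data, and its outcome is not reported here. Positions and lengths came from GENCODE M21 (GRCm38), promoters from RefSeq. The 9 genes and all lists were chosen with earlier results of these data known. The rule named up to 3 called genes per list by size of change, at a mean log2 CPM of 1 or more; other list genes were named after their values were seen, and some list genes are not reported here by name. Counting intervals cover counting error only, since reads carry no molecular identifiers. Every replicate pair differed by more than sampling noise.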

Additional observations from a re-analysis of the deposited data

How the results depend on the processing

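Tal1, Lmo2 and Runx1 kept their direction and calls under all 15 alternatives (highest adjusted p 0.0184, 0.00402 and 0.00156). For Tal1, which passed the read filter through its FTY720 libraries alone, this is a description. Irf8 turned to -0.049 with total library size alone; the cause was not tested. DESeq2 called 3 of the 7 tested role-chosen genes (2 lower) and 1274 genes lower in all; the cause was not tested. With length and GC content corrected, 2 rose. With total library size alone, 761 genes rose. Leaving out 1 library in turn gave 3 to 6 of these genes called, 2 to 5 lower and 1 higher, and 3770 to 5217 genes called in all. The share of calls that were higher was 50.7%, against 61.6% with DESeq2, 38.8% with upper-quartile factors and 22.1% with total library size alone; the last 2 shifted the median of all genes by -0.13 and -0.32 (log2). Without FTY720 plus LPS replicate 3, Lyl1 stood at -5.19. Replicate numbers showed no sign of pairing the samples (correlations of same-numbered deviations -0.022, -0.026 and -0.073, and no library correlated best with its own number). With 3 libraries per group, a shared pool or culture could go unseen by this measure. With the replicate block 5 of the role-chosen genes and 4466 genes in all were called. Depth limits Sall1, Tal1 and Lyl1, which have few reads with LPS.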
